A study of Sus scrofa with 27 samples.

Results

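A set of 10 transcription factors that define or maintain the identity of granulosa cells (GCs) and of the somatic gonad was followed in mural GCs of sows: FOXL2, GATA4, GATA6, WT1, NR5A1, NR5A2, NR0B1, LHX9, EMX2 and NR2F2. The set is a list of gene symbols. Of the 10 genes listed, 9 could be matched to an identifier of the count tables. Of these, 7 had a mean count of at least 5 read pairs per library and were tested, among 11384 named genes tested and 35670 identifiers in all. FOXL2, the forkhead factor that keeps GCs from taking on a Sertoli cell fate, had no identifier in the symbol tables and was not analysed here.

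The libraries came from wild-type sows of the cross labelled Large White times Norwegian Landrace. Full-fed (FF) sows received 6.5 kg of feed a day in the last 2 weeks of lactation and feed-restricted (RES) sows received 3.25 kg, and the ovaries were collected on day 2 after weaning. Between weaning and collection both groups had the same ration, which the labels call full feeding and the study's methods give as a fixed amount below that of FF in lactation. Mural GCs, which line the follicle wall, were cut out by laser capture microdissection from the largest healthy follicle of each sow, giving 13 FF and 14 RES libraries of rRNA-depleted RNA. The study took its FF and RES sows from the extremes of body-weight loss within larger feeding groups, so diet and weight loss cannot be told apart. It also reports that these follicles were smaller in RES than in FF sows, so diet and follicle size cannot be told apart either. With 1 follicle per sow, the spread between libraries holds both animal and follicle.

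GC identity rests on a small set of DNA-binding proteins that act together. GATA4 and GATA6 are zinc finger proteins that bind GATA motifs near genes of inhibin and steroid synthesis, and WT1 is a zinc finger factor needed to build the gonad and present in GCs of young follicles. NR5A1 (SF-1) and NR5A2 (LRH-1) are related nuclear receptors that bind the same type of DNA site at steroidogenic genes, and NR5A2 in GCs is required for ovulation and luteal function. NR0B1 (DAX-1) binds NR5A receptors and represses them. LHX9 and EMX2 are homeodomain factors of the early gonad, and NR2F2 (COUP-TFII) is a nuclear receptor better known from theca and stromal cells than from GCs.

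The deposited values were whole numbers of read pairs per gene after removal of PCR copies. The FF libraries held 12299220 to 16021200 counts each, with a median of 13490513. The RES libraries held 12942198 to 18120922, with a median of 15232600. Levels are given as CPM, the count of a gene over the summed counts of the 11384 tested genes, scaled by edgeR's TMM factors. This base is smaller than the library totals above. Levels of NR0B1 and LHX9 on unscaled library totals, given below, are thus on a lower scale. Libraries also fell into 2 groups by the share of high-quality bases in their reads, an upper group of 7 FF and 7 RES and a lower group of 6 FF and 7 RES, and values are given within each. The quality row of FF sow 10 is uncertain, and fold changes within the groups are also given with that sow in the other group. Labelled as mural GCs, the libraries had summed granulosa markers (10 genes, among them VCAN, SERPINE2 and INHBA) of 13677.2 to 22009.0 CPM in FF and 11187.2 to 25203.2 in RES.

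The promoter of NR5A1 is shown because GATA factors and NR5A receptors make up pairs described below. The window holds the 250 bases before the RefSeq gene start in Sscrofa11.1, read on the gene's strand. It is chr1:265311548-265311797 on the minus strand, and capitals mark GGGCGG on the opposite strand (printed as CCGCCC).
NR5A1: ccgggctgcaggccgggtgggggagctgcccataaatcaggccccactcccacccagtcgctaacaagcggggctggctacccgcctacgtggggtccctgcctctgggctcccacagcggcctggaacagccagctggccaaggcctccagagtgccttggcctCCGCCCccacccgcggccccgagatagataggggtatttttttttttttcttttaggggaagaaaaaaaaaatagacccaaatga

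Short motifs were also searched on both strands of the 10518 promoters of tested genes that could be read. GGGCGG was found before GATA6, WT1, NR5A1, LHX9 and EMX2 and in 57.1% of all promoters. CCAAT was found before EMX2 and NR2F2 and in 32.8% of all promoters. AAGGTCA (an NR5A motif), GTAAACA (forkhead) and TAATTA (homeodomain) were not in the NR5A1 window, and were in 2.97%, 2.1% and 2.94% of all. A match of letters shows no binding, and a window without one says nothing about the factor.

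The 7 tested factors covered a wide range of levels, with NR5A2 and GATA6 at the top. To compare genes, CPM was divided by the length of all RefSeq exons of the gene in kb. NR5A2 reached 118 ± 32.4 CPM per kb in FF (SD, n = 13) and 119.5 ± 39.6 in RES (n = 14), at rank 348 of the 10622 genes with a length. GATA6 followed at 104 ± 22.1 and 113 ± 24.2 CPM per kb, at rank 380. Both lay above the 90th percentile of all genes, which was 43.7 CPM per kb, in every library but 1, RES sow 4, where NR5A2 was below it.

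NR2F2, GATA4 and EMX2 held the middle of the order. Their levels were 13.7 ± 3.17, 11.4 ± 1.78 and 7.27 ± 3.02 CPM per kb in FF and 11.7 ± 2.65, 11.5 ± 1.88 and 8.66 ± 2.49 in RES. All 3 were above the median gene (4.69 CPM per kb) and below the upper quartile (16.6) on average. NR5A1 and WT1 were the lowest of those tested, at 2.17 ± 0.884 and 1.52 ± 0.453 CPM per kb in FF and 2.06 ± 0.647 and 2.02 ± 0.915 in RES. Both were below the median gene in each of the 27 libraries.

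Neighbours in this order were often not separated. NR5A2 was above GATA6 in 19 of 27 libraries, NR2F2 above GATA4 in 16 and NR5A1 above WT1 in 17. By contrast, GATA6 was above NR2F2 and EMX2 above NR5A1 in all 27 libraries, and GATA4 was above EMX2 in 24. The order per kb rests on RefSeq exon lengths, since the tables give none.

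**Figure D1:**
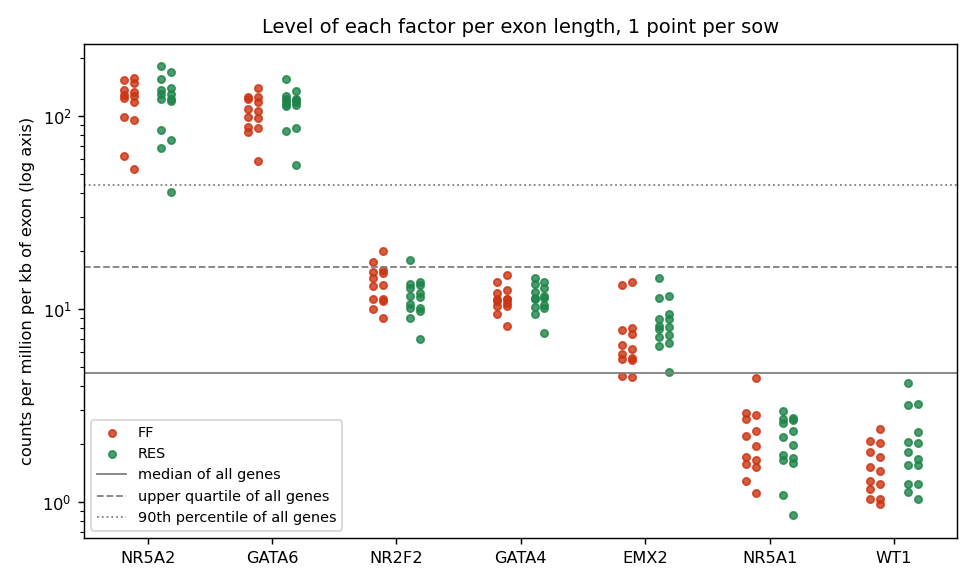
CPM per kb of exon (log axis) of the 7 tested factors, with 1 point per sow (FF red, RES green) and lines at the median, upper quartile and 90th percentile of all genes with a length. NR5A2 and GATA6 sit near or above 100 CPM per kb in most sows, NR2F2, GATA4 and EMX2 near 10, and NR5A1 and WT1 below the median gene of 4.69.

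Each factor also kept its place among expressed genes from sow to sow, to differing degrees. The percentile of GATA6 ranged over the 27 libraries from 93.0 to 97.6, and that of NR5A2 from 89.6 to 98.1. The percentile ran from 60.1 to 74.0 for GATA4, from 57.3 to 81.6 for NR2F2 and from 50.2 to 73.8 for EMX2. It ran from 24.4 to 47.5 for NR5A1 and from 22.2 to 47.5 for WT1. FF sow 10 had the highest percentile of GATA4, NR5A1, EMX2 and NR2F2, while RES sow 4 had the lowest of GATA6 and NR5A2 and the highest of WT1. The library of FF sow 10 also had the lowest total count. By the study's supplement it had the lowest RNA integrity, on which the sample records differ.

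NR0B1 and LHX9, at chrX:26117874-26122951 and chr10:20742323-20764006, did not reach the minimum count. NR0B1 gave 4 read pairs in the whole data set, 1 in each of 3 FF libraries and 1 in 1 RES library. This is 0.0168 CPM on unscaled totals in FF (exact Poisson 95% interval 0.00346 to 0.0491, of 178579761 counts) and 0.00465 in RES (0.000118 to 0.0259, of 215013101). The intervals cover counting error only, and both groups are at or near the floor of detection, so no fold is given. A count of 0 in a single library allows a level of up to 0.166 to 0.244 CPM on unscaled library totals (3 counts), depending on the depth. On the smaller base used for the other factors this limit is higher. LHX9 gave 43 read pairs in 11 of 13 FF libraries and 43 in 11 of 14 RES libraries, or 0.241 (0.174 to 0.324) and 0.2 (0.145 to 0.269) CPM on unscaled totals. On the base used for the other factors its mean was 0.403 CPM in FF and 0.366 in RES. FF sow 11 with 10 and RES sow 7 with 15 read pairs had the most. Fitted without the count filter, LHX9 had a log2 fold change of -0.20 (SE 0.58, edgeR adjusted p = 0.871).

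None of the 7 tested factors differed between RES and FF GCs in edgeR's quasi-likelihood test at an adjusted p (Benjamini-Hochberg over 11384 genes) under 0.05. In the same test 1610 genes passed, 14.1% of those tested, with 8.29% higher and 5.85% lower in RES. At an unadjusted p under 0.05 edgeR had 1 member, WT1, beside 3420 genes (30% of all). DESeq2 also called 0 members, with 1 at an unadjusted p under 0.05 and a lowest adjusted p of 0.144. The voom method called 0 as well, with 2 at an unadjusted p under 0.05 and a lowest adjusted p of 0.0719. The median absolute log2 fold change was 0.12 for the members and 0.18 for all genes tested. In bulk libraries, fewer cells that express a gene and less of its RNA per cell cannot be told apart.

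**Figure D2:**
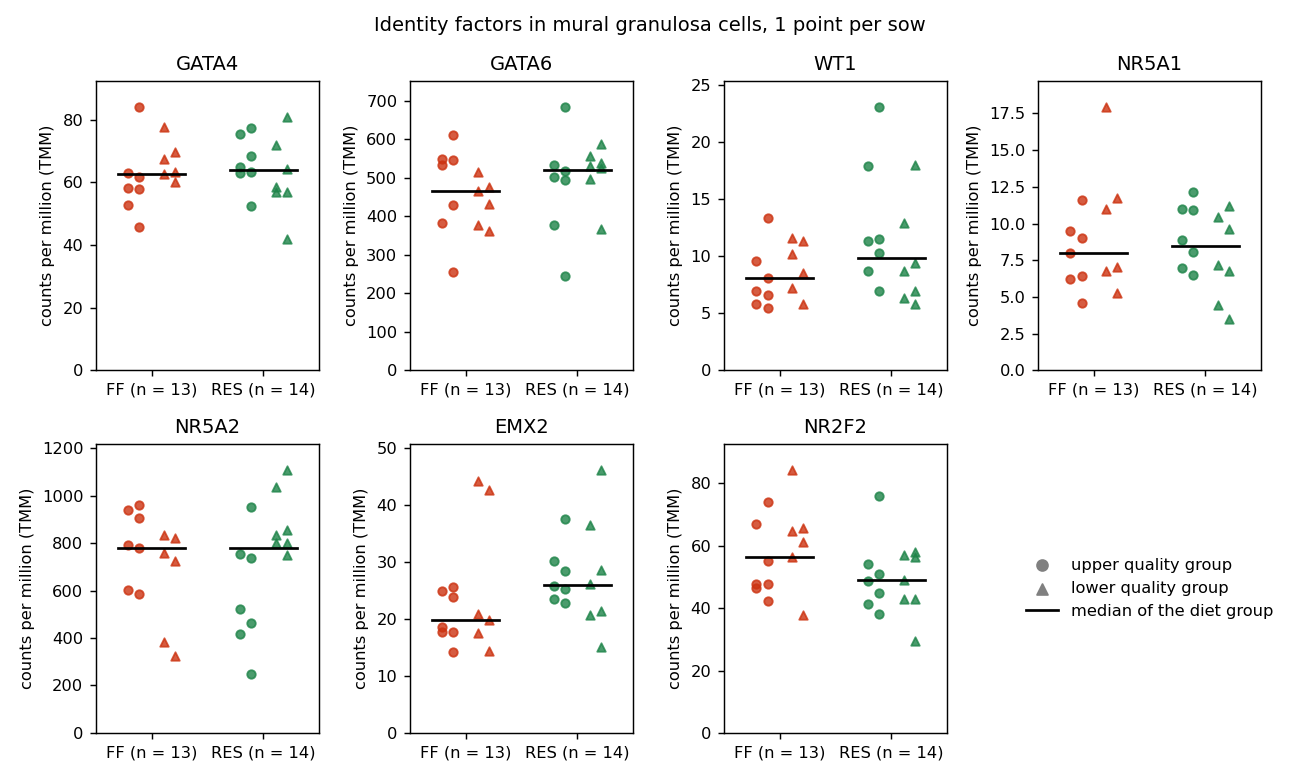
TMM-scaled CPM (linear axis from 0) of each factor in 13 FF and 14 RES sows, with circles for the upper and triangles for the lower quality group and a line at the median of the diet group. The FF and RES points overlap for all 7 factors, and 3 RES points of WT1 lie above every FF point.

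GATA4 (ENSSSCG00000022383, chr14:14858470-14938156 in Sscrofa11.1) was the steadiest. It ranged in FF from 45.6 to 83.9 CPM with a median of 62.7, and in RES from 42.0 to 80.9 with a median of 63.7. The ranges lie almost on top of each other, and 13 of 14 RES sows fell inside the FF range. The log2 fold change was 0.01 (SE 0.09, edgeR adjusted p = 0.937), with an approximate 95% interval of -0.17 to 0.20. In fold terms the interval runs from 0.887 to 1.15, so changes beyond those sizes lie outside it. GATA4 differed by 0.14 in the upper quality group and -0.11 in the lower (edgeR adjusted p = 0.466 and 0.794), or by 0.09 and -0.07 with FF sow 10 in the other group.

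GATA6 (ENSSSCG00000003702, chr6:107282709-107314725) was about an order of magnitude above GATA4 per kb. FF sows had from 256 to 611 CPM with a median of 467, and in RES from 245 to 683 with a median of 521. RES sow 4 and FF sow 6 were far below the rest, and 11 of 14 RES sows were above the FF median. GATA6 thus had a log2 fold change of 0.12 (SE 0.12, interval -0.13 to 0.38, edgeR adjusted p = 0.543). Within the upper and lower quality groups it was 0.02 and 0.23 (edgeR adjusted p = 0.960 and 0.488), and 0.04 and 0.22 with FF sow 10 in the other group. The ratio of GATA6 to GATA4 per kb within a library, a measure added after the data were seen, had a median of 9.40 in FF (6.17 to 12.3) and 10.4 in RES (5.95 to 12.5). It differed between diets by 0.11 on the log2 scale (two-sided permutation p = 0.389, adjusted over 2 ratios 0.778). The ratio differed by -0.14 in the upper quality group (exact permutation p = 0.490) and by 0.37 in the lower (exact permutation p = 0.0128). With FF sow 10 in the other group these were -0.08 (exact permutation p = 0.678) and 0.32 (exact permutation p = 0.0290), and none of the 4 is adjusted for the splits made.

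WT1 (ENSSSCG00000013316, chr2:28411467-28456007) had the largest fold change of the members. Its level in FF went from 5.48 to 13.4 CPM with a median of 8.12, and in RES from 5.84 to 23.1 with a median of 9.82. RES sows 4, 14 and 1, at 23.1, 18.0 and 17.9 CPM, were above every FF sow, and the other 11 RES sows were within the FF range. The log2 fold change was 0.41 (SE 0.20, interval 0.005 to 0.82), a 1.33-fold higher level in RES. It did not pass the threshold, with p = 0.0459 and an adjusted p of 0.158 in edgeR. Within the upper quality group WT1 differed by 0.69 (SE 0.27, edgeR adjusted p = 0.0820), and within the lower group by 0.10 (SE 0.26, edgeR adjusted p = 0.927). These were 0.62 and 0.17 with FF sow 10 in the other group.

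NR5A2 (ENSSSCG00000024975, chr10:22727865-22866905), the receptor on which ovulation depends, had equal medians and a wide spread. It ranged in FF from 326 to 962 CPM with a median of 778, and in RES from 247 to 1108 with a median of 777. RES sow 4 (247 CPM), FF sow 13 (326) and FF sow 10 (381) were low, and RES sows 5 (1108) and 3 (1038) were above every FF sow. RES sows 5 and 3 are in the lower quality group and had the lowest shares of high-quality bases in the study's supplement. The log2 fold change was 0.02 (SE 0.18, interval -0.36 to 0.40, edgeR adjusted p = 0.955).

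This equality held opposite values in the 2 quality groups. In the upper group the FF sows had 587 to 962 CPM of NR5A2, with a median of 791, and the RES sows 247 to 950, with a median of 522, a log2 difference of -0.44 (SE 0.23, edgeR adjusted p = 0.192). In the lower group the FF sows had 326 to 834 CPM, with a median of 741, and the RES sows 752 to 1108, with a median of 833, a difference of 0.46 (SE 0.21, edgeR adjusted p = 0.389). The interaction of diet and quality group was -0.91 on the log2 scale (p = 0.0104), which did not pass adjustment over all genes in edgeR (adjusted p = 0.301). For the interaction 0 genes passed adjustment in edgeR, while 1398 (12.3%) had an unadjusted p under 0.05. With FF sow 10 in the other group the differences were -0.34 and 0.345, and the interaction was -0.70 (p = 0.0523, edgeR adjusted p = 0.994).

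NR5A1 (ENSSSCG00000005588, chr1:265284491-265311547), the related receptor that drives steroid synthesis in many tissues, was low in both diets. FF sows had from 4.55 to 17.9 CPM with a median of 7.99, and in RES from 3.49 to 12.2 with a median of 8.46. FF sow 10 was the highest of all and RES sow 2 the lowest, and 12 of 14 RES sows were within the FF range. For NR5A1 the log2 fold change was -0.07 (SE 0.19, interval -0.47 to 0.33, edgeR adjusted p = 0.844), and without FF sow 10 it was 0.05. It was 0.22 in the upper quality group and -0.38 in the lower (edgeR adjusted p = 0.485 and 0.675), against 0.02 and -0.14 with FF sow 10 in the other group. Per kb, NR5A2 exceeded NR5A1 by a median of 60.7-fold in FF (14.1 to 105) and 59.5-fold in RES (23.6 to 143), so that within each sow most NR5A receptor transcript was NR5A2. This ratio differed between diets by 0.05 on the log2 scale (two-sided permutation p = 0.88), and by -0.12 without FF sow 10 (two-sided permutation p = 0.648). Like NR5A2 itself it differed in opposite directions within the quality groups, by -0.78 in the upper (exact permutation p = 0.0105) and 0.92 in the lower (exact permutation p = 0.0495), values not adjusted for the splits made. Both were smaller with FF sow 10 moved from the lower group to the upper, at -0.50 (exact permutation p = 0.220) and 0.60 (exact permutation p = 0.112).

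EMX2 (ENSSSCG00000032558, chr14:127649675-127656972) was above the FF median in 13 of 14 RES sows. Its level in FF went from 14.2 to 44.3 CPM with a median of 19.9, and in RES from 15.1 to 46.2 with a median of 26.1. FF sows 10 and 13, at 44.3 and 42.7 CPM, were apart from the other FF sows and above all RES sows but 1. The log2 fold change was 0.26 (SE 0.17, interval -0.10 to 0.61, edgeR adjusted p = 0.327). In the upper quality group it was 0.44 (SE 0.15, edgeR adjusted p = 0.0507), from 14.2 to 25.7 CPM in FF against 22.9 to 37.5 in RES, in a comparison where 17.8% of all genes passed. With FF sow 10 counted in that group it was 0.25 (SE 0.20, edgeR adjusted p = 0.441). In the lower group, where 0.00878% of all genes passed, it was 0.07 (SE 0.29, edgeR adjusted p = 0.954), and 0.26 without FF sow 10.

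NR2F2 (ENSSSCG00000002254, chr7:83076119-83090250) was below the FF median in 10 of 14 RES sows. It ranged in FF from 37.9 to 84.3 CPM with a median of 56.3, and in RES from 29.4 to 76.1 with a median of 48.9. The highest value of each diet was in FF sow 10 and RES sow 4, and 13 of 14 RES sows were within the FF range. NR2F2 had a log2 fold change of -0.23 (SE 0.12, interval -0.48 to 0.02, edgeR adjusted p = 0.210). It was negative in both quality groups, -0.10 (SE 0.16) in the upper and -0.36 (SE 0.18) in the lower, with edgeR adjusted p = 0.701 and 0.433. With FF sow 10 in the other group these were -0.19 and -0.26.

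**Figure D3:**
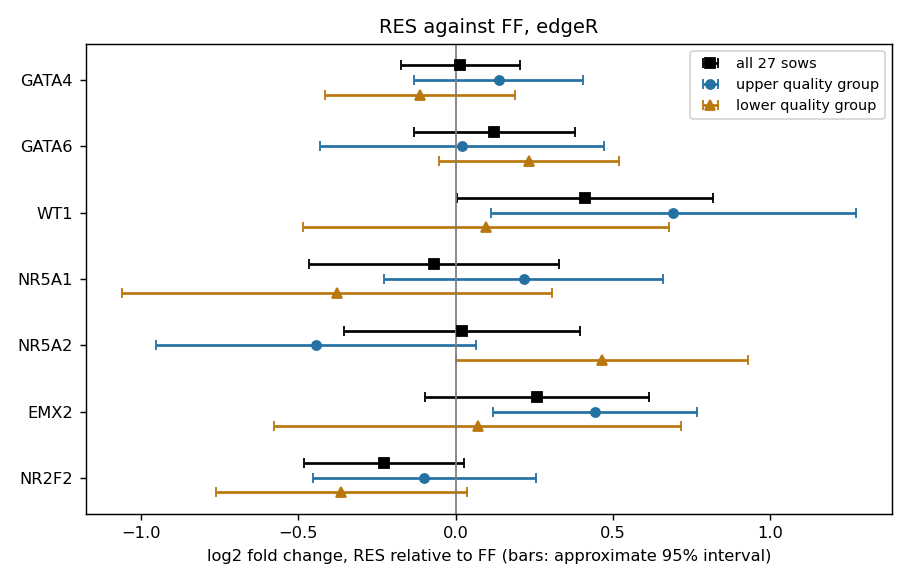
Log2 fold change of RES relative to FF GCs for each factor in edgeR, over all 27 sows (black squares), within the upper (blue circles) and within the lower quality group (orange triangles), with approximate 95% intervals from the standard error. The NR5A2 values lie at -0.44 and 0.46 in the 2 groups around 0.02 for all sows, and WT1 has the largest overall value at 0.41.

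Because NR2F2 marks theca and stroma in the ovary, its level was set beside markers of other cells, a comparison added after the data were seen. Summed over 11 stromal genes, among them COL3A1, COL1A2 and DCN, FF sows had 1790.6 to 5004.0 CPM, with a median of 2920.3, and RES sows had 1377.9 to 4651.8, with a median of 2628.0. At the threshold 0 of the 11 genes passed in edgeR, with 3 at an unadjusted p under 0.05, and 0 passed in DESeq2 and 2 with voom. Of all genes 14.1% passed in edgeR, with 30% at an unadjusted p under 0.05, 17% in DESeq2 and 28% with voom. After centring within diet, NR2F2 rose with this sum over the 27 sows (Pearson's r = 0.62, permutation p = 0.00068, adjusted over 4 relations 0.00272, Spearman's rho = 0.70, permutation p = 0.00013). The value was 0.59 when the 2 sows most distant from the median were left out, 0.49 and 0.77 in the upper and lower quality groups, and 0.77 and 0.51 within FF and RES. For theca (r = -0.21), smooth muscle and pericyte (r = 0.33) and endothelial markers (r = -0.01) the adjusted permutation p were 0.414, 0.209 and 0.956. The part of stromal RNA in the NR2F2 difference between diets was not tested.

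Markers of other cells were also counted, and beside them stand the 5.85% of all genes that were lower and the 8.29% that were higher in RES. In either direction DESeq2 called 17% of all genes and voom 28%, and edgeR had 30% at an unadjusted p under 0.05. Of the endothelial markers 5 of 9 (55.6%) were lower in RES, and their summed level ran from 147 to 296 CPM over FF sows (median 204) and from 96.8 to 298 over RES sows (median 142). Of smooth muscle and pericyte markers 2 of 10 (20%) were lower, RGS5 and PDGFRB, with sums of 375 to 1022.6 CPM over FF sows (median 578) and 259 to 1023.3 over RES sows (median 402). Of theca markers 1 of 9 was lower in edgeR, CYP11A1, beside 2 called by DESeq2, 5 by voom and 4 at an unadjusted p under 0.05. Their median log2 fold change was -0.56, with sums of 1226.9 to 4871.9 CPM over FF sows (median 2150.7) and 405 to 4352.2 over RES sows (median 1390.9), of which LHCGR alone held a mean of 1848.1 and 1111.6 CPM. Sums of the lists were not tested between diets, and the ranges of FF and RES overlap in each list given here. Of immune markers (17.1 to 74.2 CPM in FF and 8.47 to 55 in RES) 0 of 5 passed in edgeR and DESeq2, with 3 at an unadjusted p under 0.05 and 3 past the threshold with voom. Of oocyte markers (440 to 1488.9 and 564 to 1707.6 CPM) 0 of 3 passed in edgeR, DESeq2 and voom, with 0 at an unadjusted p under 0.05. That sum is mostly KIT, at a mean of 839 CPM in FF and 976 in RES, while GDF9 was at 27.7 and 24.7, DDX4 at 0.853 and 0.600, and ZP2, ZP3, BMP15, FIGLA and NOBOX were below the minimum mean count. Of granulosa markers 1 of 10 (10%), HSD17B1, was higher. The ovarian surface epithelium, which also uses WT1 and LHX9, had markers near 0 among those that could be matched, since KRT7, UPK3B and CDH1 had mean counts of 0.0741, 0.444 and 3.81 read pairs per library. The part of these cells in the levels of the identity factors was not tested.

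Stability between sows differed between the factors. GATA4 had a coefficient of variation of 15.7% in FF and 16.4% in RES, GATA6 21.2% and 21.4%, and NR2F2 23.2% and 22.7%. It was 27.5% and 33.1% for NR5A2, 29.8% and 45.4% for WT1, 40.8% and 31.4% for NR5A1, and 41.5% and 28.7% for EMX2. Since low counts vary more, the within-diet SD of log2 CPM was set against the 500 genes nearest in level. GATA4 (SD 0.24) lay at percentile 41.6, near the middle. NR2F2 (0.33) lay at percentile 71, GATA6 (0.35) at 74, WT1 (0.51) at 79.6, NR5A1 (0.52) at 81.4 and EMX2 (0.46) at 83. NR5A2 was the most variable for its level, with an SD of 0.54 where the median of its 500 neighbours was 0.26, at percentile 91.

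No factor passed a test of this spread between diets. In limma's test of the absolute deviations from the group median, all 7 factors had an adjusted p of 0.9996, and the lowest unadjusted p was 0.272 for WT1. Over all genes 0 passed in limma and 392 (3.44%) had an unadjusted p under 0.05. On simulated data this test recovered 28% of genes with an SD 2.5 times larger and 70% with one 4 times larger, so a difference in spread of that size can be missed with 27 sows.

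Of the 21 pairs, correlated over 27 sows after centring within diet, 12 had a positive r, 7 had a permutation p under 0.05 and 3 passed after adjustment over the 21 pairs. GATA4 and NR5A1 rose together (r = 0.68, permutation p = 0.00012, adjusted 0.00252, rho = 0.67, permutation p = 0.00025). The value was 0.65 in FF and 0.71 in RES, 0.68 and 0.70 in the upper and lower quality groups, and 0.57 without FF sow 3 and RES sow 2, the sows farthest from the median of GATA4. Here and in the next paragraph, values for a single quality group were centred within diet over all 27 sows. Differences between diets inside a group thus remain in them. GATA6 and NR5A2 also rose together (r = 0.64, permutation p = 0.0016, adjusted 0.0168, rho = 0.59, permutation p = 0.00168). Here r was 0.42 in FF, 0.79 in RES, 0.72 and 0.53 in the quality groups, and 0.49 without FF sow 6 and RES sow 4.

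WT1 and NR5A2 went in opposite directions (r = -0.56, permutation p = 0.00369, adjusted 0.0258, rho = -0.44, permutation p = 0.0263). By rho the adjusted permutation p was 0.184, and for r centred within diet and quality group it was 0.0597, so the call is lost under both. This relation was -0.91 in the upper quality group and -0.11 in the lower, with diet differences inside each group left in. The relation thus did not hold in the lower group. It was -0.39 in FF and -0.65 in RES, -0.48 without RES sows 14 and 4, and -0.53 without FF sow 10, where the adjusted permutation p was 0.0593. With the 2 farthest sows left out of each pair, 0 of the 21 pairs passed adjustment by permutation, and the adjusted permutation p of these 3 pairs were 0.0706, 0.105 and 0.105 (unadjusted 0.00336, 0.0150 and 0.0139). Leaving out the farthest sows also narrows the range of the values and lowers n, so these p-values do not show by themselves that the relations rest on those sows. The paired receptors NR5A1 and NR5A2 had an r near 0 (r = -0.003, permutation p = 0.986), and for GATA4 and GATA6 r was 0.47 (permutation p = 0.0191, adjusted 0.0802). The latter pair passed when centred within diet and quality group (r = 0.55, adjusted permutation p = 0.0340) and with DESeq2 size factors (r = 0.51, adjusted permutation p = 0.0319). Negative values that missed the threshold after adjustment were those of NR2F2 with NR5A2 (r = -0.50, adjusted permutation p = 0.0525) and with GATA6 (r = -0.45, 0.0827), and of EMX2 with NR5A2 (r = -0.42, 0.0872). For EMX2 with NR5A2 rho was -0.21 (permutation p = 0.292), and r was -0.18 without FF sow 13 and RES sow 4. That r was -0.74 in FF and -0.13 in RES. With DESeq2 size factors NR2F2 passed with NR5A2 (r = -0.54, adjusted permutation p = 0.0315) and with GATA6 (r = -0.51, adjusted permutation p = 0.0319), and without RES sow 7 it passed with NR5A2 (r = -0.53, adjusted permutation p = 0.0375).

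**Figure D4:**
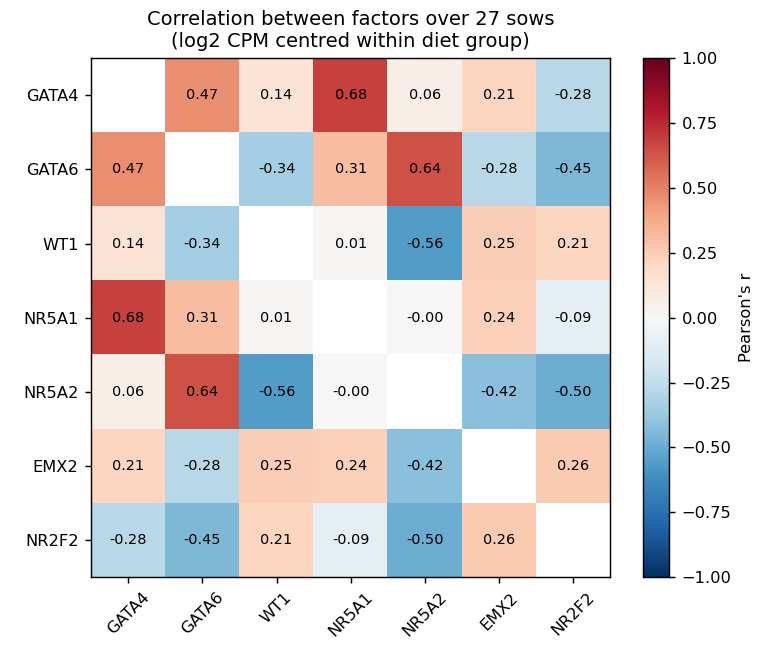
Pearson's r between the factors over 27 sows, from log2 CPM centred within diet group (red positive, blue negative). The strongest positive values are GATA4 with NR5A1 (0.68) and GATA6 with NR5A2 (0.64), and the strongest negative value is WT1 with NR5A2 (-0.56).

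**Figure D5:**
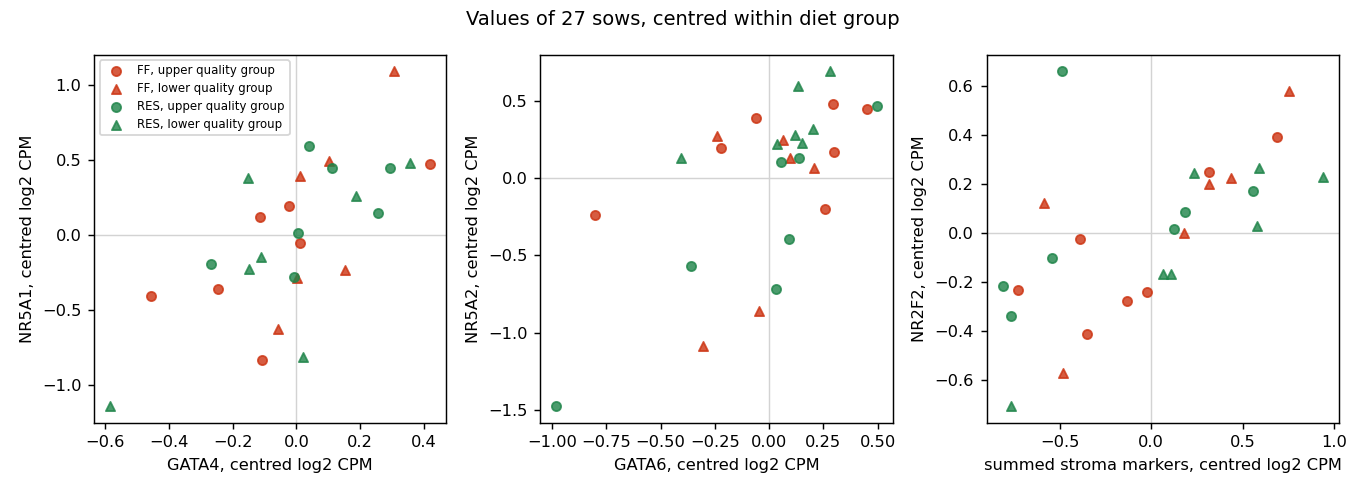
Centred log2 CPM of 27 sows for GATA4 and NR5A1, GATA6 and NR5A2, and the summed stroma markers and NR2F2, with FF in red, RES in green, circles for the upper and triangles for the lower quality group. In the GATA6 panel RES sow 4 is lowest on both axes, and r is 0.68, 0.64 and 0.62 from left to right.

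Other genes were more like these members than their partners were. Of 7979 genes with a mean count of at least 50, NR5A2 ranked 65th in likeness to GATA6, and GATA4 ranked 119th in likeness to NR5A1 although NR5A1 was 39th for GATA4. The genes most like each member over the 27 sows were TMCC3 (r = 0.80), ABCF1 (0.77) and GATAD2A (0.76) for GATA4, and DDIT4 (0.85) and BCOR (0.85) for GATA6. For WT1 they were FSHR, the receptor of follicle-stimulating hormone (0.75), EPS15 (0.73) and MCF2 (0.72). For NR5A1 they were LRRC8A (0.82), EIF4G1 (0.80) and NOL9 (0.80), and for NR5A2 LRP8 (0.87), SLC41A1 (0.85) and NPR3 (0.85). ABCC1 (0.81), NR2C2 (0.80) and PHC2 (0.80) were most like EMX2, and FRZB, a secreted WNT antagonist (0.79), ZNF182 (0.79) and CCDC80 (0.77) most like NR2F2. These are descriptions across genes that share library and depth. Of the genes named here, FRZB passed the test between diets, with a log2 fold change of -0.66 (edgeR adjusted p = 0.0310).

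The partners and relatives of the members were called at shares that varied with the setting. Of 51 co-regulators and other transcription factors of the somatic ovary, 41 were tested, 2 were higher in RES, 3 were lower and 36 did not pass (12.2% called, against 14.1% of all genes), with a median log2 fold change of -0.12 against -0.02 for all genes. DESeq2 called 8 (19.5%, against 17% of all genes), voom 14 (34.1%, against 28%) and edgeR within the upper quality group 11 (26.8%, against 17.8%). IRX5, an Iroquois homeodomain factor of pregranulosa cells, was higher by 0.53 (SE 0.15, edgeR adjusted p = 0.0183), from a mean of 6.61 CPM in FF (n = 13) to 9.51 in RES (n = 14), above the FF median in 13 of 14 RES sows. CBX2, a Polycomb protein, was higher by 1.05 (SE 0.31, edgeR adjusted p = 0.0231), from 0.843 ± 0.639 (SD) to 1.72 ± 0.786 CPM. CITED2, a co-activator that works with WT1 in the early gonad, was lower by 1.30 on the log2 scale (log2 fold change -1.30, SE 0.31, edgeR adjusted p = 0.00640), from 70.2 ± 47.2 to 28.5 ± 17.7 CPM. NR4A2, an orphan nuclear receptor induced by hormones, had a log2 fold change of -0.74 (SE 0.21, edgeR adjusted p = 0.0184). The most abundant genes of the list, NRIP1, FOXO1 and CTNNB1, had log2 fold changes of -0.13, -0.41 and -0.01 (edgeR adjusted p = 0.517, 0.106 and 0.956).

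Genes of the Sertoli side were mostly scarce, though CLDN11 had a mean of 8.12 CPM in FF. The list also holds AMH, which is among the granulosa markers too. Of 13 listed, 5 were tested (median log2 fold change 0.22) and 1 passed (20%, against 14.1% of all genes). This gene, CLDN11 of tight junctions, was lower in RES GCs by a log2 value of -1.55 (SE 0.32, edgeR adjusted p = 0.00277). DHH, a hedgehog ligand of Sertoli and granulosa cells named here after its values were seen, had a log2 fold change in the other direction of 1.08 (SE 0.39, edgeR adjusted p = 0.0568), from 0.440 ± 0.300 to 0.933 ± 0.637 CPM, and did not pass. SOX9, the Sertoli cell factor that FOXL2 represses, was at 0.774 ± 0.579 CPM in FF and 0.896 ± 0.576 in RES (edgeR adjusted p = 0.715), and DMRT1, SOX8 and SOX10 did not reach the mean count. Of 12 paralogs of the members, 5 were tested and 0 passed in edgeR, DESeq2 or voom, with 0 at an unadjusted p under 0.05. The most abundant of them were NR6A1, EGR1 and NR2F1 at 18.9, 17.9 and 6.47 CPM in FF.

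Genes known to be bound or regulated by FOXL2, the GATA factors or the NR5A receptors were called in edgeR about as often as all genes over the 27 sows. Of 33 listed, 26 were tested and 4 passed (15.4%, against 14.1% of all genes), beside 10 with voom (38.5%, against 28%) and 6 within the upper quality group (23.1%, against 17.8%). CYP19A1 (aromatase), HSD3B1, SHBG and WNT4 had no identifier in the symbol tables and were not tested, so the list is incomplete for steroid synthesis. HSD17B1, which makes estradiol from estrone, was higher by 0.56 (SE 0.17, edgeR adjusted p = 0.0270), from 232 ± 76.5 to 343 ± 94.1 CPM. CYP11A1, the first enzyme of steroid synthesis, had a log2 fold change of -1.28 (SE 0.33, edgeR adjusted p = 0.00920), the AMH receptor AMHR2 one of -0.83 (SE 0.25, edgeR adjusted p = 0.0233), and GJA1, the gap junction protein connexin 43, one of -0.58 (SE 0.18, edgeR adjusted p = 0.0338). All 14 RES sows were below the FF median of GJA1. LHCGR, the LH receptor, was at 1848.1 ± 820 CPM in FF and 1111.6 ± 794 in RES with an edgeR adjusted p of 0.154. CYP11A1 and LHCGR are also on the theca list.

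Counting used no strand option although the libraries kept strand. RefSeq exons on the opposite strand shared 47 bases with GATA6, 129 with WT1, 132 with EMX2 and 23 with NR2F2, and no such overlap was found for GATA4, NR5A1 or NR5A2. The share of reads from those neighbours was not tested.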

How the data were processed

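Mural GCs of 27 sows (13 FF, 14 RES) were measured by UMI-based RNA-seq. Per the file headers and the submitters' processing notes, the authors made the deposited counts by aligning reads to Sscrofa11.1 with HISAT2 2.2.1, removing PCR copies with UMI-tools 1.1.4 and counting uniquely mapped read pairs on exons of Ensembl 110 genes with featureCounts 1.6.2, with no strand option and no normalization. The members and all gene lists were chosen with earlier results of these data known.

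Symbols came from tables that pair Ensembl identifiers with names (15623 of 35670 identifiers). A mean count of 5 or more was reached by 17467 identifiers, of which 11422 had a symbol, and after 38 small RNAs were left out 11384 genes were tested. RES was compared with FF in edgeR 4.0.16 (TMM, quasi-likelihood F test, R 4.3.3) with Benjamini-Hochberg adjustment over all of them, and a gene passed at an adjusted p under 0.05. Intervals of fold changes are the estimate plus or minus its SE times the t quantile at 95%. Levels per kb used the union of RefSeq exons (annotation release 106, 10622 genes with a length), and promoter windows were read from the RefSeq genome. Spread was tested with limma 3.58.1 on absolute deviations of log2 CPM (prior count 2). Correlations used log2 CPM centred within diet and 100000 two-sided permutations within diet, for which the smallest p is 1e-05. Exact permutations were used for ratios within quality groups. Named genes were all members, in each list up to 6 genes with the smallest adjusted p among those that passed and the 3 with the highest mean count, and for likeness the 3 genes with the highest r.

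The quality groups were split at a gap in the share of high-quality bases given in a supplement. That supplement and the sample records disagree on whether FF sow 9 or FF sow 10 had the lowest RNA integrity. Different sows carry the same number in the 2 diets, so the numbers do not pair them. Alternatives were DESeq2 1.42.0, its size factors, upper-quartile factors, other filters, all identifiers, a replicate block, quality group or RIN as a covariate, voom with sample quality weights, each quality group alone and leaving out each sow. In counts simulated for RES against FF with 200 of 11384 genes changed, edgeR recovered 86% of genes with a fold of 2 and 57% with a fold of 1.5, and 4.67% of its calls were on unchanged genes. Figures were drawn with Python 3.11.15 and matplotlib 3.10.9. Immunostaining, follicle size and network modules were not analysed here. A few items are not reported here.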

Additional observations from a re-analysis of the deposited data

How the results depend on the processing

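No identity factor passed the test between diets under any of 10 other settings over all sows, in 27 fits that left out 1 sow each, or within a quality group, also with FF sow 10 in the other group. The lowest adjusted p over these fits was 0.0507, for EMX2 in edgeR within the upper quality group. The log2 fold changes of GATA6, WT1, EMX2 and NR2F2 kept their sign throughout, though GATA6 was 0.069 to 0.18 when 1 sow was left out, with 0.069 without FF sow 6 and 0.080 without RES sow 10. Values near 0 changed sign. GATA4 was -0.011 with upper-quartile factors, -0.0069 with the replicate block, -0.11 in the lower quality group and -0.075 there without FF sow 10, and -0.018 to 0.055 when 1 sow was left out. NR5A1 was 0.22 in the upper quality group, 0.016 there with FF sow 10, and -0.13 to 0.054 when 1 sow was left out. NR5A2 was -0.011 with the quality group as a covariate, -0.10 with voom, -0.44 in the upper quality group, -0.34 there with FF sow 10, and -0.044 to 0.092 when 1 sow was left out.

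The count of genes that passed among all tested (1610) was 3193 with voom, 1 in the lower quality group, and 1033 in the upper and 0 in the lower group with FF sow 10 moved. Pairing by the replicate block left 1084. Correlations of same-numbered sows ran from -0.242 to 0.31, so the numbers do not pair the sows, and the block called no member. All-gene counts were 1935 with DESeq2 and 2023 in the upper quality group. The 5 co-regulators that passed became 8 with DESeq2, 14 with voom, 11 in the upper quality group and 0 in the lower, and 4 to 9 when 1 sow was left out, with 8 or 9 without FF sow 10, RES sow 7 or RES sow 14. The Sertoli side list had 3 in the upper quality group, 0 in the lower and 1 to 2 when 1 sow was left out. The 4 target genes became 2 with the replicate block, 10 with voom, 0 in the lower quality group and 2 to 7 when 1 sow was left out, 2 without RES sow 3 and 7 without RES sow 7. The paralogs had 1 with no count filter and 1 in the upper quality group.

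The 3 correlations that passed became 6 with DESeq2 size factors, 0 in the lower quality group and 0 without the 2 farthest sows. NR5A1 with NR5A2, near 0, was 0.17 by Spearman's rho, 0.039 with DESeq2 size factors, 0.20 centred within diet and quality group, 0.47 in the upper group, 0.0033 in the lower, 0.20 without the 2 farthest sows, and -0.022 to 0.16 without RES sow 7 or FF sow 10. WT1 with NR5A1 was -0.094 centred within diet and quality group, -0.54 in the upper group, and -0.083 to 0.063 without FF sow 10 or RES sow 7. Also reversed were, in the upper group, GATA4 with WT1 (-0.41), GATA4 with EMX2 (-0.71) and NR5A1 with EMX2 (-0.28), in the lower group GATA4 with NR5A2 (-0.0067), GATA6 with WT1 (0.21) and WT1 with NR5A2 (0.092), and without the 2 farthest sows GATA4 with WT1 (-0.063) and NR5A1 with EMX2 (-0.023). Within quality groups these values were centred within diet and group.

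The median percentile of the members (67.3) was 72.5 for counts not divided by length and 80.2 among all identifiers. The GATA6 to GATA4 ratio differed between diets by -0.14 among upper-quality sows (exact permutation p = 0.490) and by 0.37 among lower-quality ones (exact permutation p = 0.0128), and by -0.079 (exact permutation p = 0.678) and 0.32 (exact permutation p = 0.0290) with FF sow 10 in the other group. The NR5A2 to NR5A1 ratio differed by -0.78 and 0.92 in these groups, by -0.50 and 0.60 with FF sow 10 in the other group, and by -0.12 without FF sow 10. The cause of these changes was not tested. For the least abundant members, NR0B1 and LHX9, depth limits any comparison.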
